A study of Arabidopsis lyrata subsp. lyrata with 8 samples.

Results

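Flavonoid pathway genes of Arabidopsis lyrata ssp. lyrata were compared between flower buds and roots, step by step from the first committed enzyme to the anthocyanidin-forming enzyme, with a flavonol regulator. The members were the gene models on the array whose names carry one of 10 A. thaliana locus codes. Models for 8 of the 10 codes were found, among 32386 gene models in all. No model name carried the codes of the glycosyltransferases UGT78D1 and UGT78D2, which are not analysed here.

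Flower buds and roots were taken from 6-week-old healthy plants grown in hydroponics, with no treatment, mutation or transgene named. The seeds are described by the labels as A. lyrata ssp. lyrata and also as "col 0", and this wording could not be resolved. Tissue of 8 to 10 plants was pooled for each replicate, so that spread between single plants was not measured. Total RNA was labelled with 1 dye, Cy3, and hybridised to 4 arrays per tissue. The variance of the difference between flower bud arrays 1 and 2 was 0.688 of that which the scatter of spots within arrays gives, and between arrays 3 and 4 it was 0.792, whereas the ratio was 3.38 to 16.2 for all other pairs within a tissue. The first pair was therefore counted as 1 sample, A, and the second as 1 sample, B, since their arrays differed by less than the sampling noise, which left 2 flower bud samples against 4 root samples. All 8 arrays shared 1 slide and 1 scan, with flower buds in row 2 and roots in row 1, so tissue and slide row cannot be told apart.

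Flavonoids are built from a phenylpropanoid precursor and malonyl units. Chalcone synthase (CHS) makes the chalcone, chalcone isomerase (CHI) closes its ring, and flavanone 3-hydroxylase (F3H) and flavonoid 3'-hydroxylase (F3'H) add hydroxyl groups. The resulting dihydroflavonols are turned into flavonols by flavonol synthase (FLS1) or towards anthocyanins by dihydroflavonol reductase (DFR) and leucoanthocyanidin dioxygenase (LDOX). In flowers these compounds are known as pigments, as sunscreens and as part of the pollen coat, and in roots flavonols are known to affect auxin transport. All gene roles given here are those of the A. thaliana genes whose codes the models carry.

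Levels are log2 of the background-subtracted spot signal relative to the 75th percentile of the same array, and each unit is a 2-fold step. The level of one gene cannot be set against that of another, because probes differ in brightness. Differences are flower bud minus root, with a standard error (SE) and a Benjamini-Hochberg adjusted p from a limma fit over 26420 gene models. Calls needed a difference of 2-fold or more together with an adjusted p below 0.05. In whole tissues, fewer cells of a type and less RNA per cell cannot be told apart.

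Of the 8 members, 7 were called higher in flower buds and 1, F3H, was called higher in roots. Among all models tested 51.4% were called, 27.7% higher in flower buds and 23.7% higher in roots; among those with a locus code the shares were 25.5% and 24%. The members' median difference was 6.26, against 0.03 over all models tested. It was 3.47 with normexp background correction, 5.32 with signals floored at each array's lowest one well above background, and 3.07 over the members well above background on all 8 arrays. In 7 members all 4 flower bud arrays lay above all 4 root arrays, as in 40.6% of models tested, and in F3H all 4 lay below, as in 38.3%. Only 4 members (CHI, F3H, F3'H and MYB12) were well above background on all 8 arrays, and the other 4 passed the filter on low signals through the flower buds.

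**Figure D1:**
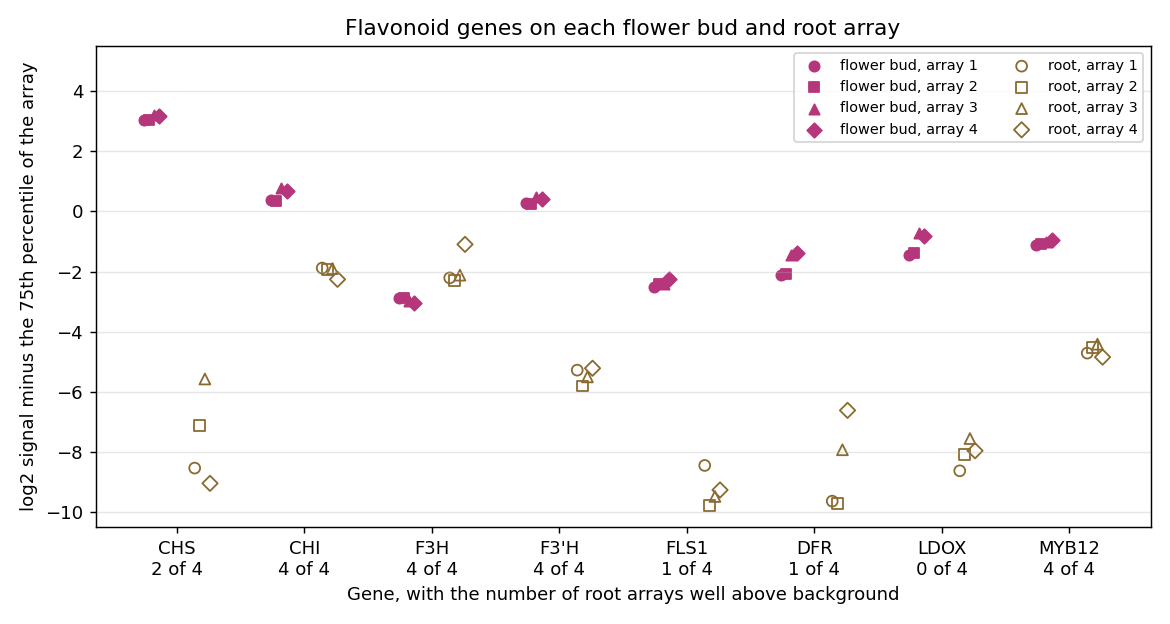
Levels of the 8 flavonoid members on each array (log2 relative to the array's 75th percentile), flower bud arrays left of root arrays within each gene. CHS spans 3.04 to 3.21 in flower buds and -9.04 to -5.57 in roots, while F3H is the member whose flower bud arrays lie below its root arrays.

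CHS (AT5G13930, named for scaffold 6) had levels of 3.04, 3.04, 3.21 and 3.17 on flower bud arrays 1 to 4, against -8.54, -7.12, -5.57 and -9.04 on root arrays 1 to 4. The flower bud signal was 41279 to 43586 units and the root signal 4.82 to 62.7 units. The groups did not overlap, and the 4 flower bud arrays lay close together while the root arrays spread over 3.47 log2 units. CHS was higher in flower buds by 10.68 ± 0.93 (SE; adjusted p = 6.59e-05, 2 samples against 4), with a 95% interval of 8.45 to 12.92. Its root signal was well above background on 2 root arrays, numbers 2 and 3. With normexp background correction the difference was 8.28, and without root sample 3 it was 11.35.

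CHI (AT3G55120, scaffold 5) had levels of 0.39, 0.34, 0.77 and 0.69 in flower buds, against -1.88, -1.94, -1.90 and -2.26 in roots. All flower bud arrays were above all root arrays, and root array 4 was the lowest. The difference was 2.54 ± 0.18 (SE; adjusted p = 2.26e-05), or 5.83-fold. CHI was well above background in both tissues, and its difference with normexp was 2.46.

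F3H (AT3G51240, scaffold 5) went the other way. It had levels of -2.89, -2.90, -2.98 and -3.04 in flower buds, against -2.21, -2.30, -2.12 and -1.10 in roots. The groups did not overlap, and root array 4 stood above the other 3 root arrays. F3H was lower in flower buds by a difference of -1.02 ± 0.35 (SE; adjusted p = 0.0370), with a 95% interval of -1.87 to -0.17, close to the 2-fold limit. The call was lost without root sample 3 (-1.08, adjusted p = 0.0577), without root sample 4 (-0.74, 0.00221), without flower bud sample A (-1.08, 0.109) and without sample B (-0.96, 0.141). It was also lost with spike-in scaling (-0.34, 0.484; the median of all models was then 0.71), with normexp (-0.96, 0.0307) and with the 75th percentile taken over probes detected on all arrays (-0.89, 0.0499).

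F3'H (AT5G07990, scaffold 6), which sets the hydroxylation of the B ring, had levels of 0.29, 0.26, 0.47 and 0.41 in flower buds, against -5.28, -5.81, -5.50 and -5.22 in roots. The arrays of each tissue lay close together and far from the other tissue. The difference was 5.81 ± 0.20 (SE; adjusted p = 7.57e-07), or 56.1-fold, and 4.84 with normexp.

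FLS1 (AT5G08640, scaffold 6), at the flavonol branch, had levels of -2.52, -2.43, -2.43 and -2.25 in flower buds, against -8.45, -9.78, -9.48 and -9.26 in roots. Its root signal was well above background on 1 array, number 1, through 1 of 2 spots. FLS1 was higher in flower buds by 6.83 ± 0.36 (SE; adjusted p = 5.26e-06). The difference was 5.08 when signals were floored at the lowest one well above background on each array, and 3.22 with normexp, and the call was kept under both.

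DFR (AT5G42800, scaffold 8), the first enzyme of the anthocyanin branch, had levels of -2.11, -2.09, -1.46 and -1.40 in flower buds, against -9.63, -9.73, -7.93 and -6.62 in roots. The groups did not overlap, root array 4 was the highest root array, and it alone was well above background. DFR was higher in flower buds by 6.71 ± 0.90 (SE; adjusted p = 5.83e-04). The difference was 7.33 without root sample 4, 5.55 with floored signals and 3.71 with normexp.

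LDOX (AT4G22880, scaffold 7) had levels of -1.44, -1.40, -0.72 and -0.81 in flower buds, against -8.63, -8.08, -7.55 and -7.96 in roots. No root array was well above background, so the root level is only a bound. LDOX was at least 84.3-fold higher in flower buds (adjusted p = 3.10e-06), set against the lowest signal that was well above background on each root array. This bound, like those given further on, is taken on the mean over samples and holds for the processed signal only. Any adjusted p printed beside a bound is that of the measured difference, which was 6.96 for LDOX. With normexp the LDOX difference was 4.34, under the bound, which is 6.40 in log2. DFR and LDOX were each read from 1 spot per array.

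MYB12 (AT2G47460, scaffold 4), a transcription factor that activates CHS, CHI, F3H and FLS1 in A. thaliana, had signals of 2325, 2374, 2353 and 2484 units on the flower bud arrays, against 172, 157, 140 and 88.3 units on the root arrays, before scaling. After scaling its levels ran from -1.12 to -0.96 in flower buds and from -4.85 to -4.42 in roots, with little spread in either tissue. The difference was 3.59 ± 0.16 (SE; adjusted p = 2.66e-06), or 12.0-fold.

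**Figure D2:**
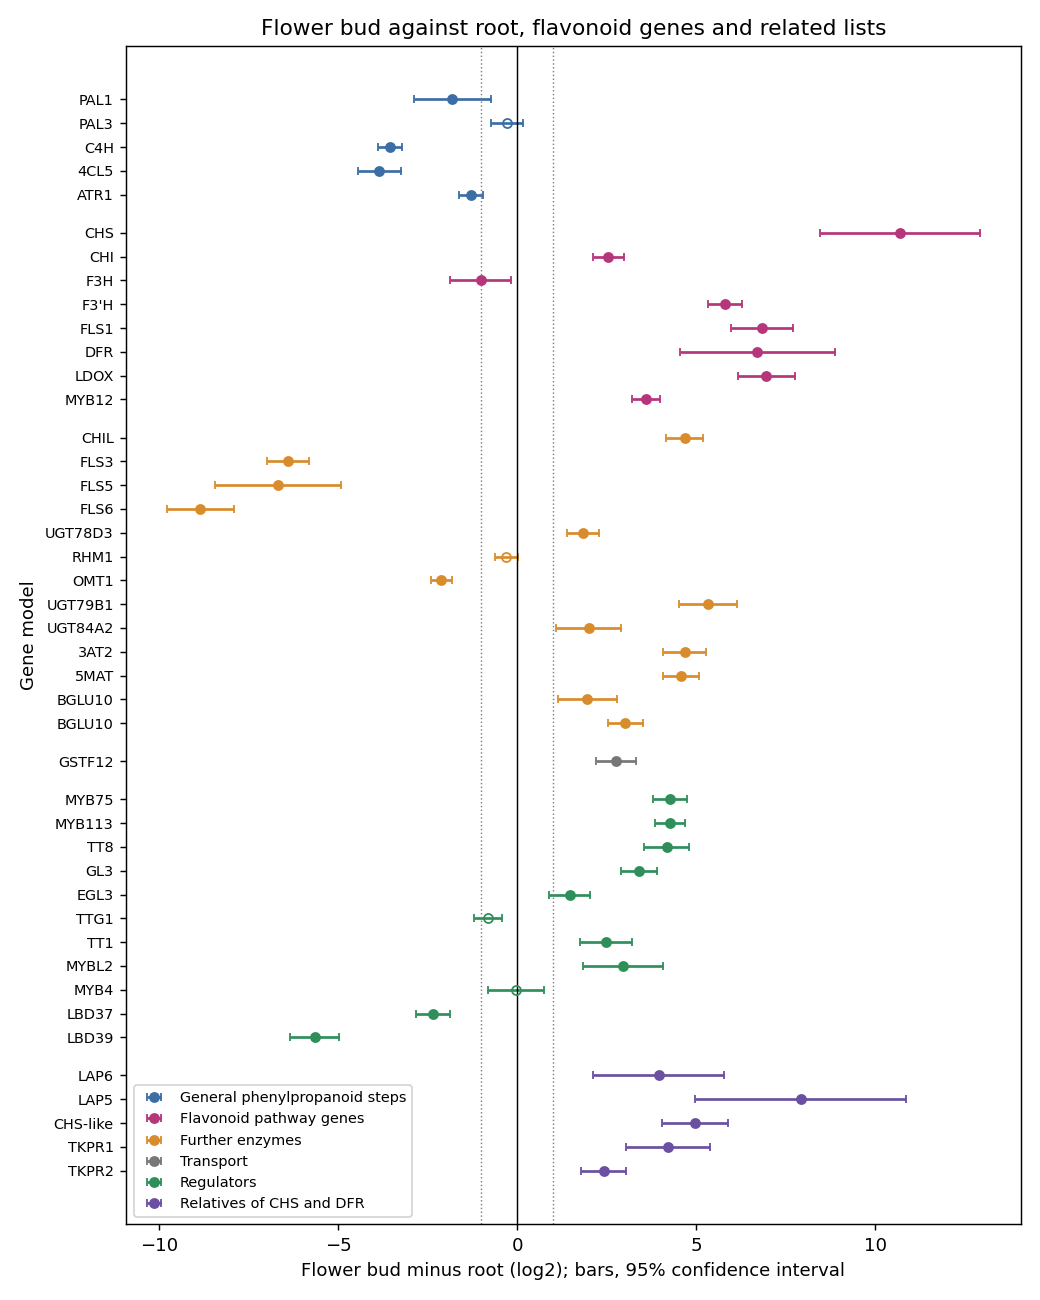
Flower bud minus root difference (log2) of the members and of the other flavonoid lists, with 95% intervals from the limma fit; filled points were called, open points were not, and dotted lines mark 2-fold. Of the members, 7 lie above 0 and F3H lies below it at -1.02.

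**Figure D3:**
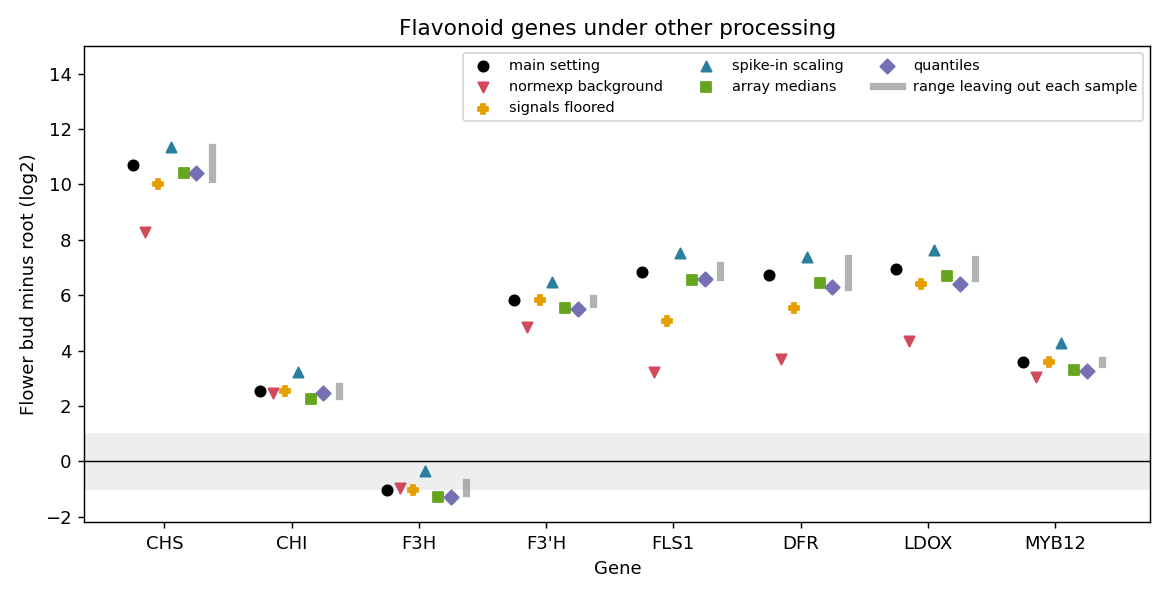
The members' flower bud minus root differences (log2) under other processing settings, with grey bars for the range when each sample was left out. Normexp lowers FLS1 to 3.22, DFR to 3.71 and LDOX to 4.34, and no member changes direction under the settings drawn.

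Enzymes that supply the pathway were called higher in roots or not called. Of 12 codes for phenylpropanoid and cofactor enzymes, 5 had a model, of which 4 were called higher in roots and 1 was not called. Among all models tested 23.7% were called higher in roots. All 5 differences were below 0, with a median difference of -1.81. Cinnamate 4-hydroxylase (C4H) had levels of 1.47 to 1.71 in flower buds and 5.03 to 5.31 in roots, a difference of -3.55 ± 0.14 (SE; adjusted p = 1.58e-06). The 4-coumarate:CoA ligase 4CL5 had -1.99 to -1.59 in flower buds and 1.70 to 2.49 in roots, a difference of -3.84 ± 0.25 (SE; adjusted p = 1.58e-05). Phenylalanine ammonia-lyase PAL1 had 0.73, 0.76, -0.91 and -0.90 in flower buds, against 1.36, 1.69, 1.83 and 2.05 in roots. Sample B differed from sample A by -1.65, and the difference of -1.81 ± 0.45 (SE; adjusted p = 0.00990) was -2.64 with sample A left out, and -0.99, under 2-fold, with sample B left out. These enzymes also feed lignin, and spike-in scaling left 2 of the 4 root calls.

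Of 22 codes for other flavonoid enzymes, 13 models were found, with 8 called higher in flower buds, 4 called higher in roots and 1 not called. Among all models tested the shares were 27.7% and 23.7%. Of the 8 well above background on all 8 arrays, 6 were called higher in flower buds and 1 higher in roots. The chalcone isomerase-like protein CHIL, which assists CHS, had levels of 1.13 in flower bud sample A and 1.77 in sample B, against -3.48 to -3.12 in roots, a difference of 4.67 ± 0.22 (SE; adjusted p = 2.96e-06). The anthocyanin xylosyltransferase UGT79B1 was higher in flower buds by 5.34 ± 0.34 (SE; adjusted p = 1.34e-05), and the anthocyanin coumaroyltransferase 3AT2 by 4.68 ± 0.25 (SE; adjusted p = 6.22e-06). UGT79B1 was well above background on 1 of 4 root arrays, and its difference was 4.88 with floored signals. With normexp the differences were 2.78 for UGT79B1 and 2.94 for 3AT2.

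Other models of the flavonol synthase family, FLS3, FLS5 and FLS6, were higher in roots, opposite to FLS1. They passed the filter through the roots alone, and FLS1 through the flower buds alone. None of these models was well above background on all 8 arrays. No model carried the codes of FLS2 or FLS4. FLS6 had levels of -7.96, -5.02, -7.59 and -8.05 in flower buds, against 1.93, 1.79, 1.80 and 1.25 in roots, a difference of -8.84 ± 0.39 (SE; adjusted p = 2.21e-06). It was well above background on 2 of 4 flower bud arrays, and array 2 stood above array 1, with which it was counted as 1 sample. FLS5 had -10.18, -10.18, -9.83 and -4.60 in flower buds, against -2.06, -1.98, -2.12 and -1.91 in roots, a difference of -6.68 ± 0.73 (SE; adjusted p = 2.04e-04). FLS5 was well above background on 1 of 4 flower bud arrays. Arrays 3 and 4, counted as 1 sample, read it very differently, and leaving out sample A gave a difference of -5.19, leaving out sample B one of -8.16 and flooring signals one of -5.11. For FLS6, leaving out sample A gave -9.51 and leaving out sample B -8.18. FLS3 was not well above background on any flower bud array and was at least 40.7-fold (5.35 in log2) higher in roots (adjusted p = 1.15e-06). With normexp the differences were -7.00 for FLS6, -3.80 for FLS5 and -3.54 for FLS3, the last smaller in size than the FLS3 bound. In A. thaliana these genes are close relatives of FLS1, and cross-hybridisation between their probes was not tested. The glutathione transferase GSTF12, needed for anthocyanin transport, was the 1 model found among 5 transport codes and was higher in flower buds by 2.77 ± 0.23 (SE; adjusted p = 5.25e-05).

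Of 24 codes for regulators, 12 models were found and 11 tested, with 7 called higher in flower buds, 2 called higher in roots and 2 not called. Among all models tested the shares were 27.7% and 23.7%. The anthocyanin activator MYB75 had levels of -1.08 to -0.64 in flower buds and -5.33 to -4.83 in roots, a difference of 4.28 ± 0.20 (SE; adjusted p = 2.89e-06), or 3.49 with normexp. MYB113, of the same subgroup, was at least 4.44-fold (2.15 in log2) higher in flower buds (adjusted p = 1.54e-06). Its bHLH partner TT8 was at least 6.27-fold (2.65 in log2) higher (adjusted p = 1.30e-05). With normexp the log2 differences of MYB113 and TT8 were 1.07 and 1.23, under these bounds. LBD39 and LBD37, repressors of anthocyanin genes, were lower in flower buds, with differences of -5.65 ± 0.29 (SE; adjusted p = 4.68e-06) and -2.35 ± 0.20 (SE; adjusted p = 6.00e-05). The repressor MYBs of the list did not follow them. MYBL2, not well above background on any root array, was called higher in flower buds, at least 2.79-fold on the processed signal. MYB4 was not called, with a difference of -0.04. TTG1, the WD40 partner of the MYB and bHLH factors, had a difference of -0.82 ± 0.16 (SE; adjusted p = 0.00347), under 2-fold. With normexp 5 regulators, rather than 7, were called higher in flower buds, and the median difference of the 11 tested was 0.57. MYB75, MYB113 and TT8 kept their calls. Those of MYBL2 and TT1 were not followed one by one, so neither call is known to hold under normexp. MYB113, TT8, TT1 and MYBL2 passed the filter through the flower buds alone. Among the 7 regulators well above background on all 8 arrays, 3 were called higher in flower buds and 2 higher in roots. The median difference of those 7 was -0.04. TT2, the proanthocyanidin MYB, was not tested, since it did not reach the background limit in either tissue. No model carried the codes of MYB11, MYB111, HY5 or 4CL3.

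Relatives of CHS and DFR, 4 of which build the pollen wall in A. thaliana, were all called higher in flower buds, 5 of 5. Their median difference was 4.22. Among all models tested 27.7% were called higher in flower buds. LAP5, a CHS-family polyketide synthase, had levels of -3.00, -3.02, 1.86 and 1.98 in flower buds, against -9.09, -8.33, -8.49 and -7.92 in roots. The measured difference was 7.91 ± 1.23 (SE; adjusted p = 0.00117). No root array was well above background, and the mean of the 2 flower bud samples was at least 123-fold higher, or 6.95 in log2. This bound does not hold for sample A alone. The measured LAP5 difference was 10.38 when sample A was left out and 5.45 when sample B was, and 4.95 with normexp. The CHS-like model and the reductase TKPR1 were higher by 4.96 and 4.22; without sample A these were 5.66 and 5.15, and without sample B 4.27 and 3.29.

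The 2 flower bud samples were set against each other as a description with no test, since each is 1 sample. DFR was higher in B than in A by 0.67 and LDOX by 0.65, and 6.19% and 6.46% of the 24930 models well above background on all flower bud arrays lay as high or higher. CHI was higher by 0.37, F3'H by 0.17, CHS by 0.15, FLS1 by 0.13 and MYB12 by 0.12, while F3H differed by -0.12. For FLS1 the arrays within 1 sample differed by up to 0.18, more than B differed from A. Over all these models the quartiles were -0.15 and 0.19, and 50.5% were higher in B. Of the 13 models of other flavonoid enzymes 7 were higher in B, with a median of 0.08. These 13 include FLS3, FLS5 and FLS6, which were not well above background on all flower bud arrays. FLS5, counted as higher in B, read -9.83 on array 3 and -4.60 on array 4. Among the enzymes for anthocyanin decoration, UGT79B1 differed by 0.83, the malonyltransferase 5MAT by 0.63 and 3AT2 by 0.55, and the 2 models of the glucosyltransferase BGLU10 by -0.16 and -0.37. GSTF12 differed by 0.53, whereas MYB75 differed by -0.32 and LBD39 by -0.81. The 6 anther and pollen markers were all higher in B, with a median of 0.71, but not alike. The pollen markers VGD1 and AGP11 differed by only 0.03 and 0.12, and the others by 0.54 to 1.99. The summed log2 level of the 6 was 7.35 to 7.39 on the arrays of B and 7.04 to 7.06 on those of A. LAP5 was higher in B by 4.93. The part of anther content in these values was not tested.

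**Figure D4:**
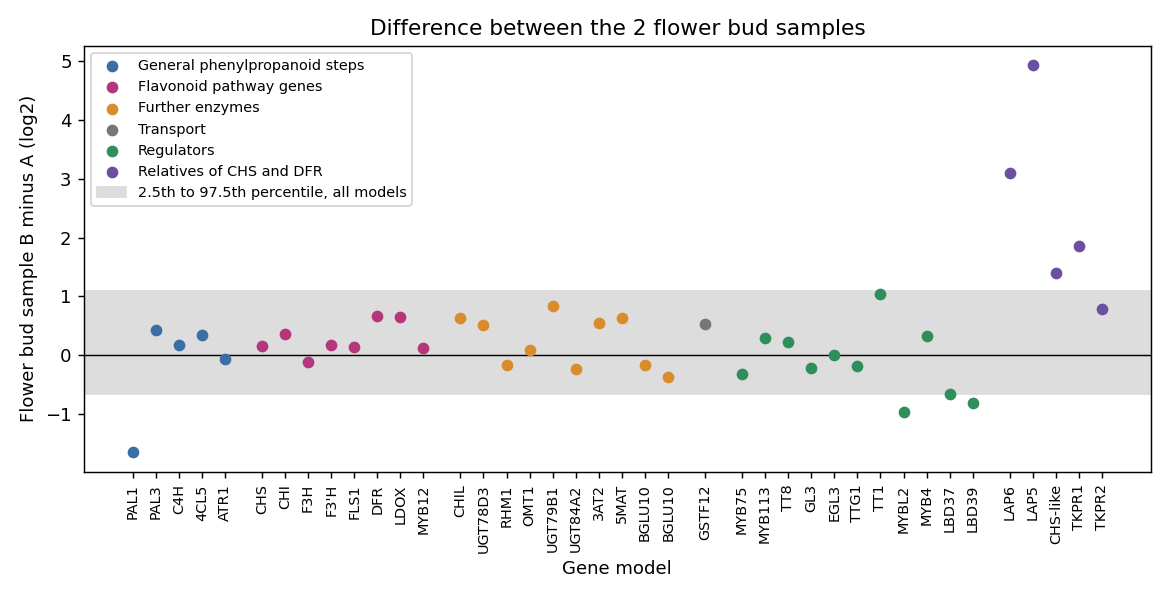
Flower bud sample B minus sample A (log2) for the flavonoid members and lists well above background on all flower bud arrays, 1 sample each, with a grey band for the middle 95% of all models. DFR and LDOX are the members farthest above 0, at 0.67 and 0.65, and F3H lies at -0.12.

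The spread among root samples was described gene by gene, with no test. The range over the 4 root arrays was 3.47 for CHS, 3.11 for DFR, 1.33 for FLS1, 1.21 for F3H, 1.07 for LDOX, 0.59 for F3'H, 0.43 for MYB12 and 0.38 for CHI. Over the 23223 models well above background on all root arrays the median range was 0.49 and the 90th percentile 1.14. With signals floored, the members' median range was 0.51, against 1.14 without a floor. Floored, the range was 2.03 for CHS, 1.11 for DFR, and 0.42 for FLS1 and LDOX, while that of F3H stayed at 1.21. CHS, DFR, FLS1 and LDOX were at or near background on most or all root arrays, whereas F3H was well above it on all 4. Among the members, root array 4 held the highest F3H, F3'H and DFR levels and the lowest CHS, CHI and MYB12 levels, and it also held the highest GSTF12 level. On that array CHS was below the background limit. On that array the summed level of 5 low-oxygen markers was 1.85, against 3.52 to 3.88 on the other root arrays, and that of the green-tissue markers was 1.40, against 1.69 to 2.20. The median level of the green-tissue markers was instead highest on that array, at -3.11, against -3.77 to -3.43. The green-tissue markers thus did not move together there. The part of either marker set in these results was not tested.

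The labelled tissues were checked against marker genes. The summed log2 level of 4 floral organ identity genes was 6.31 to 6.62 in flower buds and -2.40 to -1.67 in roots, and that of 5 root markers was -6.10 to -5.14 in flower buds and 4.11 to 4.63 in roots. Of the root markers only CASP1 was well above background in flower buds, and 3 of 4 floral genes were well above background on every root array. Green-tissue markers summed to 7.69 to 7.82 in flower buds and 1.40 to 2.20 in roots. The 75th percentile signal was 4716 to 5054 units for flower buds and 2541 to 4499 units for roots, and 78.9% to 80.5% of flower bud spots and 73.0% to 75.2% of root spots were well above background.

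Likeness was taken as Pearson's r of log2 levels over the 8 arrays, which hold 6 samples and share the difference between tissues, among 11622 models with a locus code. The 5 models with the highest r to CHS, at 0.997 to 0.999, were AT2G29670, AT1G72520, AT1G15170, AT1G64355 and AT3G49120. CHS was well above background on 2 of 4 root arrays, so these r rest in part on root signals at background, and no order among the models is read from them. At r of 0.99 or more lay 162 models for CHS and 12 for F3H. The models most like F3H were AT1G06040 (0.995), AT4G03110, AT2G21340 and AT1G76550 (0.994 each) and AT3G48090 (0.992).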

How the data were processed

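Spot intensity values, background-subtracted but not normalized between arrays, came from Agilent Feature Extraction 10.10.1.1, per the file headers. Marks for outlying spots and for those well above background came with them. Log2 values in the authors' deposited table matched log2 signal minus the array's 75th percentile, centred on each probe's median (r at least 0.999997). The medians of its flower bud columns were -0.04, -0.05, -0.03 and 0.06, and of its root columns 0.02, -0.05, 0.06 and 0.09. Its making is not described in the sources used here, so scale and centring rest on that match. Each file listed 62976 features, and 12 to 88 leftover lines were ignored.

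Outlier spots were dropped, the log2 signals of a probe's spots averaged, and each array's 75th percentile, control probes left out, subtracted. Models with 2 probes (477) were read from the brighter. A probe was well above background where at least 0.5 of its spots were. Testing required this on every array of 1 tissue or both, and was done with limma 3.58.1 in R 4.3.3 (lmFit and eBayes, Benjamini-Hochberg adjustment), over 2 flower bud and 4 root samples; 5951 models were not tested. The fit was tested on simulated data. Deviations of same-numbered arrays correlated at -0.06 to 0.04 between tissues, and the numbers were not used as pairs in the main fit. These values cannot show that the numbers pair no plants, since the flower bud arrays held 2 samples. Whether replicates came from separate cultures is not stated beyond the pooling of plants.

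The named genes were all members, the 3 called models with the largest fold in each direction of each list, genes at steps between members, and the 5 models most like CHS and F3H. The models most like CHS and F3H were not followed through the alternatives. Nor were other genes mentioned above, such as MYBL2, MYB4, TT1, 5MAT, BGLU10 and the tissue markers. The members and lists were chosen with earlier results of these data known. Alternatives were other background corrections, scalings, filters, the deposited table and leaving out each sample. The slide could not be a block. None of the 8 member models was found in the RefSeq gene table, so no coordinates or sequences are given. The number of arrays limits the precision.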

Additional observations from a re-analysis of the deposited data

Results flagged for a closer look

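On root array 4, 3 genes stood apart from the other 3 root arrays, by a gap between the extreme array and its nearest neighbour that exceeded Dixon's 95% critical share of the group's whole range. CHI was low there, at -2.26, against a nearest value of -1.94. F3H was high, at -1.10, against a nearest value of -2.12. GSTF12 was high, at -3.27, against a nearest value of -3.77. In all, 27 groups of 4 root arrays were examined, and chance gives about 1 such gap in 20 groups.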

How the results depend on the processing

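The number of members called was 8 and became 4 when only models well above background on all 8 arrays were kept, which removes the other 4 members by construction. Of 448 values for the 27 named genes under the alternatives, 438 kept their direction and their side of the threshold, 9 lost the call (F3H in 7 and PAL1 in 2, of which spike-in scaling gave -1.14 for PAL1), 1 gained it (TTG1, -1.10 with arrays set to their medians), and none changed direction. The cause of these changes was not tested. Over all models, 13583 were called, against 11595 with normexp, 14494 with spike-in scaling and 9300 with the strict filter; 53.9% of calls were higher in flower buds, and 72.7% with spike-in scaling, which moved the median of all models from 0.03 to 0.71. That median was -0.25 with array medians, -0.10 with quantiles and 0.15 with the percentile over detected probes. The replicate block gave 13742 calls, with 8 members and 31 other listed models called, as without it. Leaving out 1 sample gave 7 to 8 members called. Flooring signals was an alternative chosen after seeing the data. Dim root signals limit the size of the CHS, FLS1, DFR and LDOX differences.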
